A study of Mus musculus with 2 samples.

Results

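The cytochrome P450 genes examined here are the genes whose symbol has the form Cyp, a number, letters and a number, or is Cyp51, on an Affymetrix mouse array hybridised with RNA of epididymal white fat, a visceral depot of male mice. By this rule, applied to probe sets annotated with a single gene symbol, 96 probe sets of 71 genes were members, of 18193 genes named on the array. Both samples came from male C57BL/6 mice given regular food until dietary challenge started at 9 weeks of age, and the labels name no transgene or mutation. The chow sample was from a mouse kept on a normal chow diet, and the other sample was from a mouse that had received a high-fat diet for 7 weeks. The sources used here do not give the composition of the diets, the length of chow feeding or the age at sampling. Each diet had 1 array, so there was no estimate of the spread between animals, no test of the diet was possible, and "higher" and "lower" below describe these samples only.

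Cytochrome P450 enzymes are haem proteins of the endoplasmic reticulum and mitochondria that insert an oxygen atom into lipids, hormones and foreign compounds. They draw electrons from partner proteins, and many are switched on by ligand-activated transcription factors such as the aryl hydrocarbon receptor and nuclear receptors. Most drug-metabolising members are known from liver, lung, kidney or gut, while fat tissue is known to express a smaller set that handles fatty acids, sterols, retinoids, oestrogens and small solvents.

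A probe set was called above background where its intensity reached the 40th percentile of all probe sets on that array, a floor of 28.6 on chow and 27.9 after high-fat feeding. A gene was called measured where at least 1 of its probe sets did so on at least 1 array. The floor is a rank and not a detection call, so weak signals just above it need not come from the named transcript. Values under the floor were raised to it, a difference that rests on such a value is written as "at least N-fold", and every difference is the log2 value after the high-fat diet minus that on chow. As a measure of probe error, the log2 differences of several probe sets of the same gene scattered around their gene mean with a pooled SD of 0.32 over 5196 genes. This SD was 0.37 for genes whose mean intensity was under 100, 0.29 from 100 to 400, and 0.20 for brighter genes. For 6 P450 genes with several such probe sets it was 0.37. This error contains no difference between animals.

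The label of the tissue was checked against markers. All 13 fat cell markers analysed were above the floor on each array, with Adipoq, the gene of adiponectin, at 8372.1 on chow and 8718.4 after high-fat feeding, and their median difference was 0.06. Median differences were 0.03 for 12 macrophage markers, -0.01 for 10 endothelial markers, 0.15 for 10 progenitor and fibroblast markers and -0.15 for 6 smooth muscle and pericyte markers. Of 8 epididymis markers analysed, 5 were above the floor on at least 1 array, and their median difference was -0.09. In a whole fat pad, fewer cells of a type and less RNA per cell cannot be told apart.

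Of the 71 P450 genes, 48 were measured and 23 were below the floor on both arrays. On chow 46 genes (64.8%) were above the floor and on the high-fat diet 36 (50.7%), against 73.1% and 73.2% of all genes named. A smaller share of P450 genes than of all genes was thus above background on each array, and the share was larger on chow. Above the floor on both arrays were 34 genes, namely Cyp1a1 and Cyp1b1 of family 1, Cyp2b10, Cyp2b13, Cyp2c29, Cyp2c38, Cyp2c54, Cyp2c55, Cyp2c68, Cyp2c70, Cyp2d13, Cyp2d22, Cyp2e1, Cyp2f2, Cyp2j6, Cyp2j9, Cyp2s1 and Cyp2u1 of family 2, Cyp3a11, Cyp4a31, Cyp4b1, Cyp4f13, Cyp4f16, Cyp4f39 and Cyp4v3, the sterol genes Cyp7a1, Cyp7b1, Cyp27a1, Cyp46a1 and Cyp51, the steroid genes Cyp11b1, Cyp11b2 and Cyp21a1, and Cyp20a1. Of these, Cyp7b1 had no single probe set above the floor on both arrays.

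Above the floor on chow only were 12 genes, Cyp1a2, Cyp2b9, Cyp2c39, Cyp2c50, Cyp2d9, Cyp2g1, Cyp2j5, Cyp4a14, Cyp4f18, Cyp8b1, Cyp26b1 and Cyp39a1. They made up 25.0% of the measured P450 genes, while 5.42% of all measured genes were above the floor on chow only. Their chow intensities lay between 28.7 and 102.8 and their high-fat diet intensities between 5.4 and 27.2, and for 4 of them the chow value exceeded the floor so little that the bound was under 1.1-fold. Above the floor on the high-fat diet only were Cyp2b19 and Cyp2c23. With Cyp7b1, whose probe set used was also of this kind, they made up 6.25% of the measured P450 genes, beside 5.74% of all measured genes. Neither of these comparisons with all genes was matched for intensity. Of the 48 measured P450 genes 37 had a mean intensity under 100, against 6592 of all 14066, and weak genes lie nearer the floor. With the floor at the 60th percentile, 21 genes were above it on each array, without the surplus on chow. Below the floor on both arrays were Cyp2a12, Cyp2c37, Cyp2c65, Cyp2d10, Cyp2d12, Cyp2d26, Cyp2d34, Cyp2d40, Cyp2j11, Cyp2j13, Cyp2r1, Cyp3a13, Cyp3a16, Cyp3a25, Cyp3a44, Cyp4f14, Cyp4f15, Cyp4x1, Cyp11a1, Cyp17a1, Cyp24a1, Cyp26a1 and Cyp27b1, whose 26 probe sets read between 0.3 and 27.9 on chow and between 1.5 and 25.8 after high-fat feeding.

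**Figure D1:**
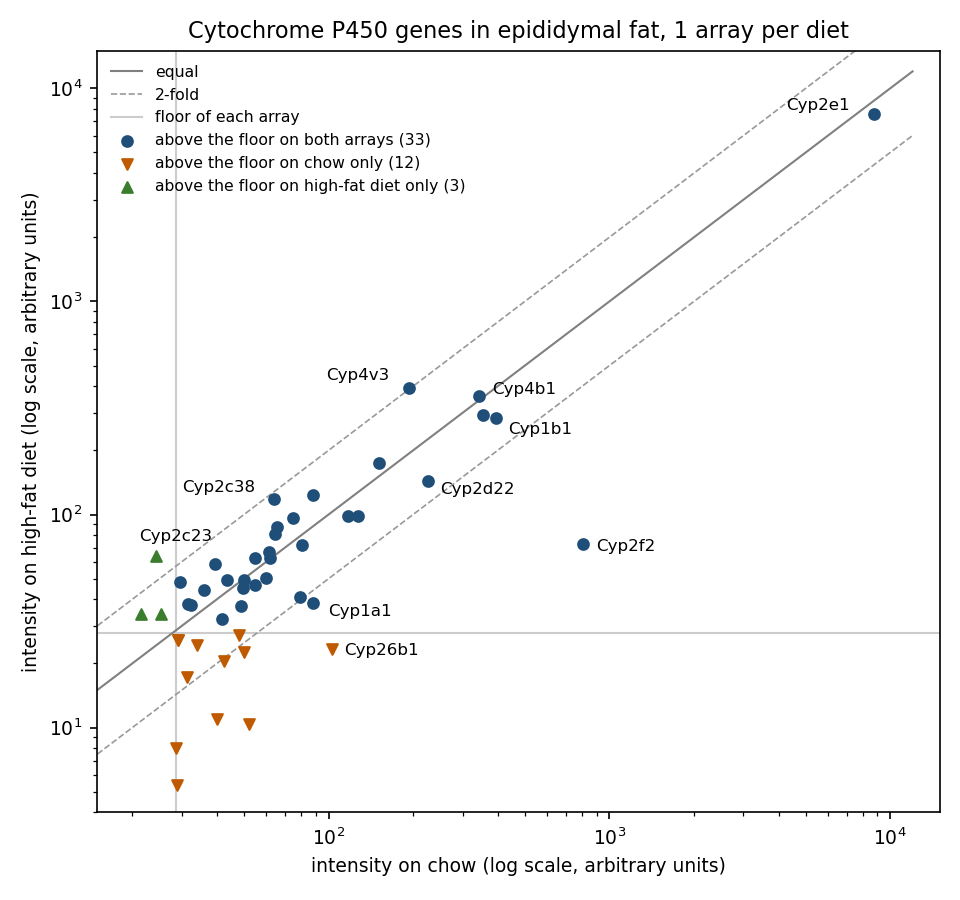
Intensity of the 48 measured cytochrome P450 genes on chow (horizontal axis) and on the high-fat diet (vertical axis), both on log scales in the arbitrary units of the array, with 1 array per diet and the probe set used for each gene. Intensities are plotted before raising to the floor. Some genes above the floor on chow only, such as Cyp2c50 at 28.8 and 5.4, therefore lie below the lower 2-fold line. The bound of Cyp2c50 is 1.03-fold. Most points lie between the dashed 2-fold lines, Cyp2f2 lies far below them at 806 on chow and 72.5 after high-fat feeding, and the 12 triangles pointing down are genes above the floor on chow only; Cyp7b1, whose other probe set was above it on chow, is among the triangles pointing up.

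Most measured P450 genes had weak signals. In the probe set used for each gene, 7 of 48 (14.6%) had an intensity of at least 100 on both arrays, against 49.9% of all measured genes, and 35 were under 100 on both. The 7 were Cyp2e1, Cyp4b1, Cyp1b1, Cyp27a1, Cyp4v3, Cyp2d22 and Cyp20a1. The median intensity of the measured P450 genes was 53.5 on chow and 48.8 after high-fat feeding.

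Of the 33 P450 genes measured on both arrays, 30 differed by less than 2-fold and 3 by more. The other 15 of the 48 rest on a bound, which was 2-fold or more in 2 and under 2-fold in 13, and for these 13 a difference of 2-fold is not excluded. Cyp2f2, Cyp26b1 and Cyp1a1 were 2-fold or more lower on the high-fat diet, 3 of 48 genes, where 1.33% of all measured genes were. Cyp4v3 and Cyp2c23 were 2-fold or more higher, 2 of 48, where 1.16% of all measured genes were. With bounds included, 28 P450 genes were lower and 20 higher (58.3% lower, against 52.9% of all 14066 measured genes), with a median difference of -0.06 against -0.02. Among the 33 measured on both arrays, 16 were lower and 17 higher, with a median of 0.02. The surplus of lower genes lay in those above the floor on chow only. Such genes can only come out lower, because their value after high-fat feeding is raised to the floor. Of these 33, 75.8% lay within 0.5 log2 units, against 85.0% of the 12496 genes measured on both arrays. Weak genes at large passed 2-fold more often: 2.05% of measured genes with a mean under 100 were lower by that size and 1.41% higher, against 0.696% and 0.937% of brighter genes. Among the P450 genes, 2 of the 37 with a mean under 100 were lower by 2-fold (Cyp26b1 and Cyp1a1) and 1 was higher (Cyp2c23), and of the 11 brighter genes 1 was lower (Cyp2f2) and 1 was higher (Cyp4v3). At 1.5-fold, a size chosen after the data were seen, 9 of 48 were lower and 4 higher, where 6.33% and 5.75% of all measured genes were.

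The promoters of Cyp2f2, Cyp26b1, Cyp1a1 and Cyp4v3, all past 2-fold, are shown with those of Cyp2e1, the member with the highest intensity on both arrays, and Cyp1b1, the partner of Cyp1a1 in family 1, because P450 genes are known for control at the promoter. Each is the 250 bases before the RefSeq transcription start in build GRCm38.p6, on the gene's own strand. Capitals mark matches to GCGTG, the core bound by the aryl hydrocarbon receptor and its partner Arnt (either strand, written CACGC on the other), to AGGTCA, the core bound by nuclear receptors (either strand), and to TATAAA, the TATA box (gene strand only). No overlap between the motifs occurred in these windows. For Cyp2c23, also past 2-fold, no promoter was matched, so none is shown.
Cyp2f2 lies at chr7:27119705-27119954 on the plus strand.
Cyp2f2: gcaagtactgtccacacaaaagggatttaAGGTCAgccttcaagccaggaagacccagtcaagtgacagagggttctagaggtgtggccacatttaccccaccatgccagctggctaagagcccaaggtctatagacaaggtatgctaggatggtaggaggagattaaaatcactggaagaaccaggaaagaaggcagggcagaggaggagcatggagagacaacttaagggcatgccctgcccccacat
Cyp26b1 lies at chr6:84593811-84594060 on the minus strand.
Cyp26b1: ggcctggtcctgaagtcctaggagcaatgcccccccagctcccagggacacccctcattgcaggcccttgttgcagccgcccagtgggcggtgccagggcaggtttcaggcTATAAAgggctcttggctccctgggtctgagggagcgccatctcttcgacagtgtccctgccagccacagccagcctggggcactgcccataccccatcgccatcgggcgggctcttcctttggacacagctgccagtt
Cyp1a1 lies at chr9:57697363-57697612 on the plus strand.
Cyp1a1: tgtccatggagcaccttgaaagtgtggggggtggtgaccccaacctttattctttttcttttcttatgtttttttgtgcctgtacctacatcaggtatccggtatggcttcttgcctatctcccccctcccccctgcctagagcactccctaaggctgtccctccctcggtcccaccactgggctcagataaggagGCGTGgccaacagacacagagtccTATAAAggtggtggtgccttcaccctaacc
Cyp1b1 lies at chr17:79715062-79715311 on the minus strand.
Cyp1b1: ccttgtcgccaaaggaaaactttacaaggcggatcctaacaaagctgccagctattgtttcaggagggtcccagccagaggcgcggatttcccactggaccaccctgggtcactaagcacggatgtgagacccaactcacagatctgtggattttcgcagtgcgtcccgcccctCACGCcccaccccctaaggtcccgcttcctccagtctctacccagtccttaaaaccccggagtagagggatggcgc
Cyp4v3 lies at chr8:45333164-45333413 on the minus strand.
Cyp4v3: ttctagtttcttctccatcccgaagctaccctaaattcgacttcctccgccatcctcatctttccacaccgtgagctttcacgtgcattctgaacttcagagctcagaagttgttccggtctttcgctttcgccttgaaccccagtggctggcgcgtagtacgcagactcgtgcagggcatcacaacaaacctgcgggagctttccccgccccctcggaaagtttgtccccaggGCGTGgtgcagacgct
Cyp2e1 lies at chr7:140763569-140763818 on the plus strand.
Cyp2e1: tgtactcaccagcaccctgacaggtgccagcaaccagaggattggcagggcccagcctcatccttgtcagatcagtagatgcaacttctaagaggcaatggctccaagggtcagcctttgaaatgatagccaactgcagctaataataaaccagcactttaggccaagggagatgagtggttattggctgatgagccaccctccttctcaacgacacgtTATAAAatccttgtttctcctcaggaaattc

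Cyp1a1, Cyp1b1 and Cyp4v3 each held 1 GCGTG match, beginning 54, 76 and 16 bases before the start. Cyp2f2 held 1 AGGTCA match 221 bases before the start. TATAAA lay 30 bases before the start of Cyp1a1, 31 before that of Cyp2e1 and 139 before that of Cyp26b1. Promoters were matched for 52 of the 71 genes, and 13 of these (25.0%) held GCGTG, against 30.9% of the 27025 genes in the RefSeq table. AGGTCA was in 12 of 52 (23.1%) against 15.8% of all genes, and TATAAA in 13 of 52 (25.0%) against 8.94%. The 11 measured P450 genes with GCGTG had a median difference of 0.18, with 7 higher and 4 lower, and the 23 without it had a median of -0.06. Cyp1b1, Cyp20a1, Cyp2b10, Cyp4f16 and Cyp51 are among the 11, and the probe sets of each did not share a direction. Medians with and without the motif were -0.06 and -0.05 for AGGTCA, and -0.16 and -0.05 for TATAAA. A link between motif and direction was not tested.

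Among the enzymes of foreign compounds in families 1 to 3, Cyp2e1, which oxidises ethanol, acetone and other small molecules, read 8752.7 on chow and 7561.1 after high-fat feeding. It was 1.16-fold lower, a log2 difference of -0.21, about the size of the probe SD of 0.20 for bright genes. It was -0.37 under lowess centring, which adjusts for a trend with intensity.

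Cyp2f2, known for the activation of naphthalene in lung and liver, read 806 on chow and 72.5 after high-fat feeding. It was 11.1-fold lower, a log2 difference of -3.47, and ranked first among all 14066 measured genes ordered from the most strongly lower, with bounds placed at their bound. This difference far exceeded the probe SD of 0.29 for genes of its brightness, but Cyp2f2 had 1 probe set, so no other probe set of the gene stood beside it. In RefSeq gene order Cyp2f2 lies in a run of 13 P450 genes from Cyp2s1 to Cyp2t4, with at most 4 other genes between neighbours, of which 8 were members and 7 were measured. Of the other measured genes of this run, Cyp2s1 differed by -0.25, Cyp2b10 by 0.18 and Cyp2b13 by 0.22. Cyp2b9, Cyp2b19 and Cyp2g1 gave bounds of -0.06, 0.26 and -0.79.

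Markers of other tissues that express P450 genes were also compared. Of 18 liver markers, 15 were measured, with a median difference of -0.61 and none at 0. Of these, 13 were lower on the high-fat diet, 5 by 2-fold or more. Among all measured genes, 52.9% were lower and 1.33% were lower by 2-fold or more. In the probe set used, 4 liver markers (Apoa1, Apoa2, Fga and Ahsg) passed the floor on chow alone, and 0 after high-fat feeding alone. These 4 could only come out lower, and the differences of Apoa1 and Apoa2 past 2-fold are such bounds. The summed intensity of the 15 was 1360.8 on chow and 708.2 after high-fat feeding. Past 2-fold were the plasma protein genes Apoa2 (214.2 and 13.1, at least 7.68-fold), Apoa1 (83.5 and 18.3, at least 2.99-fold), Ttr (108.7 and 28.6) and Apoh (137.4 and 49.2), and the tyrosine-degrading enzyme Hpd (111.8 and 54.5). The other measured probe set of Apoh differed by 0.16, so its direction depended on the probe set. Alb, the gene of albumin, read 141.5 and 121.5, while the fibrinogen genes Fgb and Fgg were below the floor on both arrays. Of 11 mesothelial markers (the mesothelium covers the fat pad), 9 were lower with a median of -0.66, and their summed intensity was 2098.4 and 1504.7. Of 6 genes listed as airway club cell markers, 5 were measured, with a median of -0.10 and summed intensities of 412.6 and 421.6. The list held Foxj1, a gene of ciliated cells, and the surfactant genes Sftpb and Sftpd. Its median and sum are therefore not those of club cells alone. Scgb1a1, the defining gene of club cells, read 8.1 and 7.2, below the floor on both arrays. The related genes Scgb3a2 and Scgb3a1 read 32.7 and 12.3, and 102.9 and 97. The part of these cell types in the differences of Cyp2f2 and of the 12 genes above the floor on chow only was not tested.

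Family 1 holds the classical targets of the aryl hydrocarbon receptor, and its 3 genes were lower in the probe set used for each. Cyp1a1, an oxidiser of aromatic hydrocarbons, read 88.3 on chow and 38.4 after high-fat feeding in its only probe set, 2.30-fold lower (-1.20). With the floor at the 60th percentile its value after high-fat feeding was raised to the floor, which left a bound of -0.59. A difference of 2-fold is not excluded by that bound. With the pseudocount of 16 in place of the floor the difference was -0.94, short of 2-fold. Cyp1a2 read 28.7 and 8, so that its bound of at least 1.03-fold lower says little. Cyp1b1, which oxidises oestrogens and aromatic hydrocarbons and is known from stromal cells, read 393.8 and 284.4 in its brightest probe set, 1.38-fold lower (-0.47). Its other probe sets went elsewhere: 1 read 93.4 and 96.2, and the other 14.6 and 62.6, at least 2.19-fold higher. The direction of Cyp1b1 therefore depended on the probe set. Ahr itself, named here because of these targets, read 92.7 and 72.3, and its probe sets differed by -0.36 and 0.25. Tiparp, also known as a target of this receptor and named after its values were seen, read 470.7 and 485.8. Its 3 measured probe sets lay between -0.05 and 0.05.

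The Cyp2c genes, known for drug metabolism in liver and for making epoxides of arachidonic acid, were the subfamily with the most measured genes, 9 of 11. Of these 6 were higher and 3 lower, with a median of 0.41. Cyp2c23, an arachidonic acid epoxygenase of kidney and vessels, read 24.3 on chow and 64.1 after high-fat feeding, at least 2.24-fold higher (1.16). This bound fell away with the floor at the 60th percentile, at 0.09, and was 0.99 with the pseudocount. Cyp2c38 read 63.9 and 118.7, 1.86-fold higher, and Cyp2c55 29.5 and 48.4, 1.64-fold higher. The 3 lower genes were Cyp2c29 at 80.4 and 71.9, and Cyp2c39 and Cyp2c50, both under the floor on the high-fat diet. The highest Cyp2c intensity was 118.7, and each measured Cyp2c gene had 1 probe set, so the direction of the group rests on weak signals.

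Of the Cyp2d genes, Cyp2d22 was the brightest and had 2 probe sets of the same direction. The brighter read 225.3 and 143.5, 1.57-fold lower (-0.65), and the other 143.8 and 104.4 (-0.46). Cyp2d9, a male-predominant steroid hydroxylase of mouse liver, read 52.2 and 10.4, at least 1.87-fold lower. Cyp2d13 went the other way at 74.5 and 96.6, 1.30-fold higher, and the other 5 Cyp2d genes were below the floor on both arrays.

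Other family 2 and 3 genes went in both directions. Cyp2g1, an olfactory enzyme, read 48.1 and 27.2, at least 1.72-fold lower. Cyp2s1, an extrahepatic enzyme, read 117.1 and 98.8, 1.19-fold lower. Cyp2j6, of the epoxygenase subfamily Cyp2j, read 61.8 and 62.6, and its other probe set 27 and 41. Cyp2b10, the classical phenobarbital-induced gene of liver, read 43.4 and 49.1 in the probe set used, 47.9 and 32.9 in another, and 17.9 and 31 in the third, so its probe sets did not share a direction. Of 5 Cyp3a genes only Cyp3a11, a main drug-metabolising enzyme of mouse liver, was measured, at 88.3 and 122.9, 1.39-fold higher. Cyp2u1, a fatty acid hydroxylase, read 48.6 and 37.1, 1.31-fold lower.

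**Figure D2:**
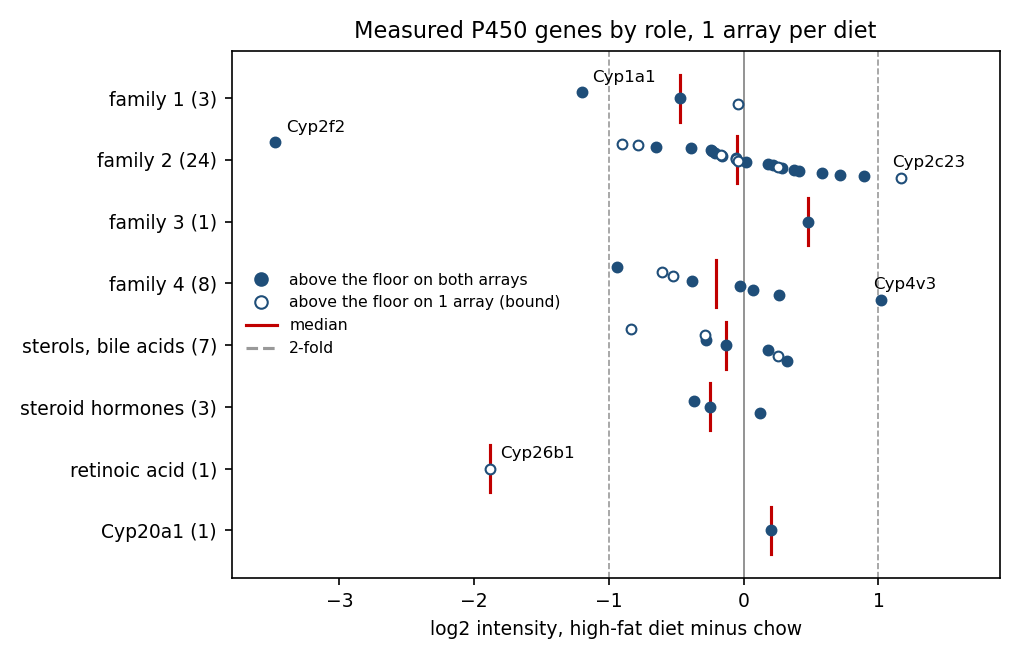
Log2 difference of each measured P450 gene, high-fat diet minus chow, by family or role, with the number of measured genes in parentheses; filled circles are genes above the floor on both arrays, open circles are bounds, red lines are medians and dashed lines mark 2-fold. Most points lie between the dashed lines, Cyp2f2 (-3.47), Cyp26b1 (-1.88) and Cyp1a1 (-1.20) lie to the left and Cyp2c23 (1.16) and Cyp4v3 (1.02) to the right.

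Family 4 enzymes hydroxylate the far end of fatty acids and eicosanoids, and 8 of 11 were measured, 5 lower and 3 higher, with a median of -0.20. Cyp4v3, an omega-hydroxylase of fatty acids whose human counterpart is mutated in a crystalline eye dystrophy, read 193.5 on chow and 392.6 after high-fat feeding. It was 2.03-fold higher (1.02), and its other probe set read 116.6 and 283.5, 2.43-fold higher (1.28). Cyp4v3 was thus the only P450 gene past 2-fold in 2 probe sets, each measured on both diets, and its difference exceeded the probe SD of 0.29 for its brightness. Adding a pseudocount of 16 in place of the floor brought the first value to 0.96, just under 2-fold.

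Cyp4b1, a fatty acid and xenobiotic hydroxylase known from lung, read 343.6 and 360.5, a difference of 0.07 that lay within the probe error. Cyp4f13 read 78.9 and 41.1, 1.92-fold lower, in a single probe set. Cyp4f16, a Cyp4f enzyme, read 127.5 and 97.9 (-0.38) in the probe set used and 31.4 and 42.5 (0.44) in the other. The probe sets of Cyp4f16 therefore differed in direction. Cyp4a14, a target of the nuclear receptor Ppara, read 42.5 and 20.6, at least 1.52-fold lower, and Cyp4a31 read 50 and 49.1. Cyp4f18, which degrades leukotrienes, read 40.2 and 11, at least 1.44-fold lower.

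All 7 genes of sterol and bile acid metabolism were measured, 4 lower and 3 higher, with no difference or bound as large as 2-fold. Cyp27a1, the mitochondrial hydroxylase of the cholesterol side chain, read 356 and 293.1, 1.21-fold lower (-0.28). Cyp51, the demethylase of lanosterol in cholesterol synthesis, read 64.7 and 80.9 (0.32) in the probe set used and 41.2 and 22.4 in another, at least 1.48-fold lower. Cyp7b1, an oxysterol hydroxylase, read 21.5 and 34.1 in one probe set and 32.2 and 11.9 in the other. Neither Cyp51 nor Cyp7b1 had a direction shared by its probe sets. Cyp8b1, which directs bile acid synthesis to cholic acid, read 49.8 and 22.7, at least 1.78-fold lower, and Cyp7a1, the rate-limiting enzyme of bile acid synthesis in liver, 49.5 and 45.1. Cyp46a1, known for cholesterol removal in brain, read 54.9 and 62.3, and Cyp39a1, an oxysterol hydroxylase, 34 and 24.3.

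Cyp26b1, which degrades retinoic acid and so limits its signal, read 102.8 on chow and 23.5 after high-fat feeding, at least 3.68-fold lower (-1.88), in its only probe set. The bound follows the floor: it was -2.13 with the floor at the 20th percentile, -0.81 at the 60th and -0.04 with a floor of 100, the last chosen after the data were seen. Its relative Cyp26a1 was below the floor on both arrays. Among retinoic acid receptors, Rarb, itself a known target of retinoic acid, read 26.4 and 55.2, at least 1.93-fold higher, Rara 22.8 and 34.3, and Rarg 329.1 and 291.7, while the probe sets of Rarg did not share a direction; these 3 genes were named after their values were seen.

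Genes of steroid hormone synthesis were weak throughout. Cyp11a1, which starts steroid synthesis, and Cyp17a1 were below the floor on both arrays, and aromatase, Cyp19a1, was not analysed here. Cyp11b1 read 41.6 and 32.2, Cyp11b2 59.8 and 50.2, and Cyp21a1 61.4 and 66.9, with a second probe set of Cyp21a1 at 39.7 and 18.6. These enzymes belong to the adrenal cortex, and of its markers and those of Leydig cells 6 were analysed and 5 measured, with a median difference of -0.11. The genes of vitamin D activation and breakdown, Cyp2r1, Cyp27b1 and Cyp24a1, were all below the floor. Cyp20a1, an orphan P450 with no settled substrate, read 151.6 and 174.5 (0.20), 103.7 and 102.2 in another probe set, and 35.8 and 23.2 in the third.

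**Figure D3:**
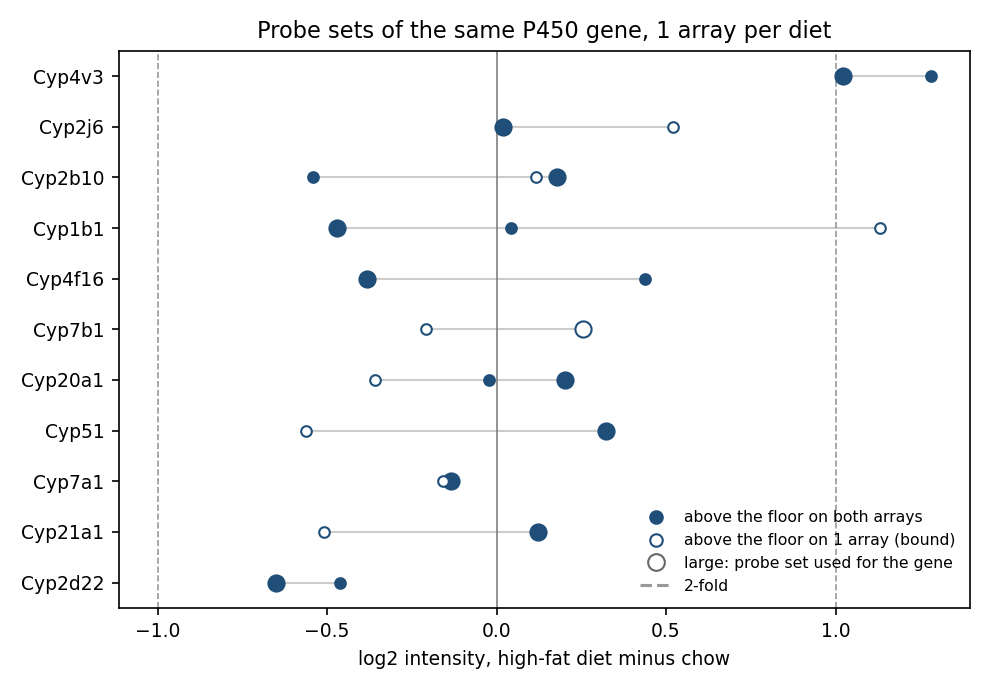
Log2 differences, high-fat diet minus chow, of all measured probe sets of the 11 P450 genes that had at least 2; filled circles mark values measured on both arrays, open circles are bounds, large circles are the probe sets used for the gene, and dashed lines mark 2-fold. The probe sets of Cyp4v3, Cyp2d22, Cyp7a1 and Cyp2j6 lie on one side of 0, and those of the other 7 genes lie on both sides.

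Agreement between probe sets was limited. Of the 11 P450 genes with 2 or more measured probe sets, 4 had differences of a single sign (Cyp4v3, Cyp2d22, Cyp7a1 and Cyp2j6) and 7 had both signs. Close paralogues add to this uncertainty: 6 of the 96 probe sets had an identifier of the _s_at type and 4 of the _x_at type, which mark possible matches to other transcripts, and 3 further probe sets named a P450 gene among several and were left out. Cyp2c23 was read by an _s_at probe set, as was the brighter probe set of Cyp4v3, whose other probe set was of the plain type. Values of Cyp2c23 and of the brighter Cyp4v3 probe set are uncertain to that extent.

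Genes that work with P450 enzymes were given from lists for electron transfer, haem, regulators and later steps. From the list of electron donors 7 genes were analysed and all were above the floor on each array. Of these, 4 were higher and 3 lower, none past 2-fold, with a median difference of 0.02. The list also held Pgrmc1 (-0.25) and Pgrmc2 (-0.38), which bind P450 enzymes but are not electron donors. Both are among the 3 lower genes, so the median is not that of electron donors alone. Cyb5a, the gene of cytochrome b5, read 3591.6 on chow and 3641 after high-fat feeding, and Por, the gene of P450 reductase, was not analysed here. Cyb5b, the mitochondrial form of cytochrome b5, and the cytochrome b5 reductases Cyb5r3 and Cyb5r1, named after their values were seen, were higher by similar amounts: Cyb5b by 1.44-fold in 3 probe sets of one direction, Cyb5r3 by 1.45-fold in 3 and Cyb5r1 by 1.44-fold in 1. For haem synthesis 8 genes were measured, 5 higher and 3 lower, none past 2-fold, with a median of 0.10. Alas1, its rate-limiting enzyme, read 1317.9 and 1059, and its probe sets differed in sign. So did those of Fech (-0.39 to 0.49), Cpox (-0.30 to 0.53), Ppox (-0.18 to 0.16) and Uros (-0.14 to 0.13), all counted as higher. The 4 genes of haem breakdown had a median of 0.02, and Blvra, a biliverdin reductase, read 280.3 and 347.6.

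Of 21 regulators analysed, 17 were measured, 11 lower and 6 higher, with no difference or bound as large as 2-fold and a median of -0.09. Nr0b2, a nuclear receptor that represses other receptors, read 50.7 and 13.9, at least 1.82-fold lower, and was named after its values were seen. Pparg, the master regulator of fat cells, read 1115.6 and 795.6, 1.40-fold lower. The receptors Nr1i3, Nr1h4 and Vdr and the repressor Ahrr were below the floor on both arrays. Of 10 measured enzymes that act on P450 products, 7 were lower and 3 higher, with a median of -0.44. Of the 7, 2 were lower by 2-fold or more. Among all measured genes, 52.9% were lower and 1.33% were lower by 2-fold or more. Sult1e1, an oestrogen sulfotransferase, read 440.6 and 159.6, 2.76-fold lower, and Gsta3, a glutathione transferase, 596.8 and 256.3, 2.33-fold lower, with -0.37 in its other probe set. Gstm1, another glutathione transferase, read 2279.3 and 2497.2. Tbxas1 and Ptgis, P450-type enzymes that make thromboxane and prostacyclin and carry names outside the Cyp series, read 88.9 and 68.2, and 500.6 and 409.9. Both were lower by less than 1.5-fold.

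**Figure D4:**
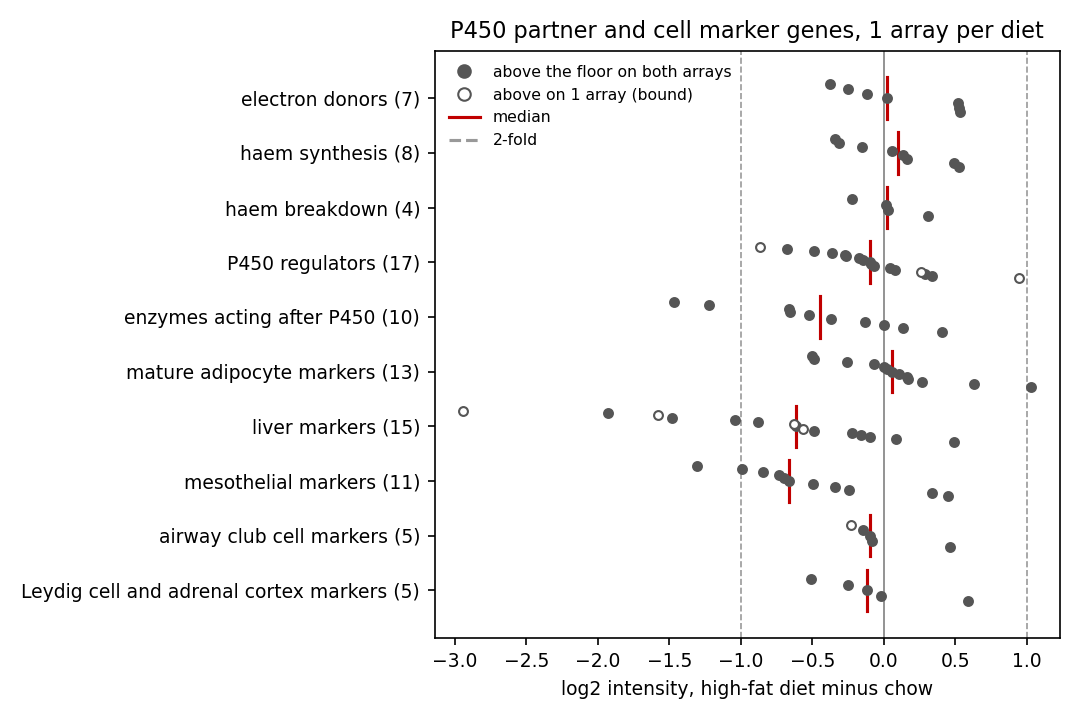
Log2 differences, high-fat diet minus chow, of the measured genes of P450 partner lists and cell marker lists, with the number of measured genes in parentheses; filled circles are genes above the floor on both arrays, open circles are bounds, red lines are medians and dashed lines mark 2-fold. The medians of the electron donor list (0.02, with Pgrmc1 and Pgrmc2 included) and of haem synthesis (0.10) lie near 0. Those of enzymes acting after P450 (-0.44), liver markers (-0.61) and mesothelial markers (-0.66) lie to the left.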

How the data were processed

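Total RNA of epididymal fat (10 µg per sample) was labelled with biotin for an Affymetrix array, per the labels' protocols. The deposited values are linear intensities, 1 for each of 45037 probe sets on an array. Their summary algorithm, scaling and genome build were not stated in the labels or file. Means after trimming 2% at each end were 99.6 on both arrays and median log2 intensities differed by -0.03, so intensities were used as deposited, with no centring. Such values do not show differences in total RNA.

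Gene names came from the 2016 annotation of the platform: 34945 probe sets had 1 symbol, 932 several and 9160 none. All 71 members matched RefSeq by gene ID, with 0 symbols changed. A gene was represented by its measured probe set of highest mean log2 intensity. With 1 array per diet, differences were described by size at 2-fold, beside all measured genes. The calculation was tested on simulated data in which only genes well above the floor were changed, so this test does not cover weak genes or bounds.

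Full values were given for members past 2-fold, the 10 brightest, and those whose measured probe sets disagreed in sign or passed 2-fold; other measured members were given more briefly. Members, lists and alternatives were chosen with earlier results of these data known. Computation used Python 3.11.15, numpy 2.4.6, pandas 2.3.3 and statsmodels 0.14.6.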

Additional observations from a re-analysis of the deposited data

How the results depend on the processing

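Cyp2f2 lay between -3.49 and -3.01 and Cyp4v3 between 0.96 and 1.28 under the alternatives that gave them a value. Cyp1a1 came down to -0.59 and Cyp2c23 to 0.09 with the floor at the 60th percentile, and Cyp26b1 to -0.04 with a floor of 100. All of these are bounds in those settings. Apart from the small offset between the floors of the 2 arrays, a floor can shrink a bound but cannot turn its sign. Cyp2e1 was -0.37 under lowess centring. Of 159 values of the 17 genes named by rule 148 moved by less than the probe SD, 11 by more and 0 of the values past 2-fold changed sign; Cyp1b1, Cyp20a1, Cyp21a1, Cyp2b10, Cyp4f16, Cyp51 and Cyp7b1, all under 2-fold, had another sign in at least 1 alternative. Quantile normalization, lowess centring, median centring and both other ways of combining probe sets left 3 lower and 2 higher genes. In these settings 0.967% to 1.21% of all measured genes were lower and 0.796% to 1.25% higher. With the floor at the 20th percentile, 61 genes were above it on chow and 56 on the other array, and 12 were 2-fold or more lower and 3 higher, where 4.29% and 3.60% of all measured genes were. With the floor at the 60th percentile, 21 genes were above it on each array. Of 24 measured, 1 was higher (Cyp4v3) and 1 lower (Cyp2f2), where 0.821% and 0.606% of all measured genes were. A pseudocount of 16 in place of the floor gave 0 higher and 5 lower genes, where 1.58% and 1.70% of all measured genes were. Plain probe sets only gave 1 higher (Cyp4v3) and 1 lower (Cyp26b1) of 44 measured, because the probe sets of Cyp2f2, Cyp1a1 and Cyp2c23 are of other types. Of all measured genes 1.20% were higher and 1.41% lower in that setting. Chosen after the data were seen, a floor of 100 left 11 genes on the chow array and 9 on the other. Of 13 measured, 1 was higher and 1 lower, where 0.774% and 0.449% of all measured genes were. A threshold of 1.5-fold, also chosen after the data were seen, gave 4 higher and 9 lower, where 5.75% and 6.33% of all measured genes were. The floor thus sets how many genes are counted. The number of arrays limits all values. No paired analysis was possible because each diet had 1 sample.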
